A study of Mus musculus and Homo sapiens with 33 samples.

Results

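The genes described here are p53, its regulators and transcriptional targets, and the machinery of apoptosis, as measured by RNA-seq in KPL cells, a murine lung adenocarcinoma line. A list of 33 gene symbols was set by function and looked up in the symbol column of a matrix of 38924 Ensembl genes. All 33 were found, and 29 had enough reads to be tested. The 2 groups were 3 control libraries, labelled EtOH for ethanol, and 3 libraries of cells given 4-hydroxytamoxifen (4-OHT) for 72 hours (dose given as 10 nm), a treatment that the labels say deletes Lin9. Lin9 encodes a core subunit of MuvB, a complex that activates mitotic genes together with B-MYB.

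The labels give the line and the treatment but not the alleles that both groups carry. From published work, KPL cells are known to descend from a mouse lung tumour with conditional loss of p53, and they carry conditional Lin9 alleles. The sources used here give neither the Cre driver nor whether the line is a single clone. Every 4-OHT library analysed is labelled as Lin9-deleted, so an effect of the drug or of Cre cannot be told apart from that of Lin9 loss. In bulk RNA, fewer cells with a transcript and less RNA per cell also cannot be told apart.

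p53 is a transcription factor that is kept low by MDM2, a ubiquitin ligase, and MDM4, which masks its activation domain. When active it induces genes of cell cycle arrest, repair and death, Mdm2 among them, so that Mdm2 closes a feedback loop. It also induces p21 (Cdkn1a), through which MuvB is redirected into the repressive DREAM complex that silences mitotic genes. Mitochondrial apoptosis is decided within the BCL2 family, where BH3-only proteins such as BIM, PUMA and NOXA neutralise the anti-apoptotic members or activate the pore formers BAX and BAK. Cytochrome c released through the pore then joins APAF1 to activate caspase-9. In cells that lack functional p53, the basal activity of its target genes has to come from other factors.

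Library totals lay between 5859826 and 5913942 reads, and 1 read was worth 0.169 to 0.172 CPM (a gene's reads relative to its library's size, with sizes scaled by the trimmed mean of M-values). Lin9 itself was counted at 156, 124 and 159 reads in control and at 108, 107 and 101 reads in 4-OHT libraries. Its log2 fold change was -0.49 with SE 0.11 (0.71-fold, adjusted p = 0.0011 in edgeR). The groups did not overlap, as was the case for 24.3% of all genes tested. The count covers the whole gene and cannot show how complete the deletion was. All 6 epithelial markers were expressed, Krt8 at a mean of 1876 CPM, whereas of 7 markers of alveolar type 2 cells and the lung lineage Sftpc and Sftpa1 had 0 reads and only Nkx2-1, Lamp3 and Abca3 were testable. Of these epithelial markers edgeR called 3 lower and 0 higher in 4-OHT libraries (summed level 5564 to 5642 CPM in control, 5528 to 5693 CPM in 4-OHT). Of 4 mesenchymal markers it called 3 higher and 0 lower (4296 to 4350 CPM in control, 4511 to 4848 CPM in 4-OHT). Over all genes tested, edgeR called 9.79%. In DESeq2 3 of the epithelial markers but only 1 of the mesenchymal markers, Vim, were called, against 4.53% of all genes it tested. Among the other lists, the alveolar type 1 marker Aqp5 was called lower (log2 fold change -0.15, adjusted p = 0.00076 in edgeR). Pdpn, the only other tested marker of that list, leaned higher without being called (log2 fold change 0.44, 5 to 14 reads per library). The summed level of the 4 alveolar type 1 markers was 425.8 to 446.3 CPM in control and 374.2 to 410.4 CPM in 4-OHT libraries. Aqp5 made up most of this level (mean 432.8 and 388.7 CPM). Hmga2, a marker of dedifferentiated lung tumour cells, was called higher (log2 fold change 0.15, adjusted p = 0.00019 in edgeR). In the same list Hnf4a (-0.14) and Lgals4 (-0.08) leaned lower without being called, and Gkn2 had 0 reads. The summed level of these 4 markers was 687.2 to 702.6 CPM in control and 742.6 to 776.8 CPM in 4-OHT libraries. Most of it was Hmga2 (mean 638.9 and 709.6 CPM). The part of these markers in the results that follow was not tested. Summed levels of fibroblast markers were 8.06 to 10.6 CPM in control and 7.09 to 8.99 CPM in 4-OHT libraries, those of endothelial markers 7.36 to 9.94 and 8.48 to 8.60 CPM, and those of immune markers 4.98 to 8.04 and 5.60 to 6.28 CPM. No label says that replicates were separate cultures, so p-values measure only the spread between these samples, which may be technical.

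Short stretches of the promoters are shown first, because the members differ in which DNA elements lie near their starts. RefSeq promoter windows (GRCm38.p6, 250 bases before to 50 after an annotated start) were held for 28 of the 33 members. Each was searched on both strands for the p53 decamer (the short element of which a full p53 site holds a pair), for the CHR element TTTGAA or TTCGAA that MuvB binds through LIN54, and for TGTTTAC, a core recognised by FOXO factors that was added after the sequences had been read. The p53 decamer occurred in 7 of 28 members (Aen, Bax, Ccng1, Ddit4l, Mdm2, Sesn1 and Trp53), against 9.55% of all 27025 genes with a window. A pair of decamers with 0 to 13 bases between them occurred in 0 members and in 0.074% of all genes. Only exact matches inside the windows were counted, so p53 sites that lie elsewhere or depart from the pattern were not seen. The stretches below carry the decamer in capitals for Trp53, Mdm2, Ccng1 and Bax.
Trp53: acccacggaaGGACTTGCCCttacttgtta
Mdm2: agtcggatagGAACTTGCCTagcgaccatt
Ccng1: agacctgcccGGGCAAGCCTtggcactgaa
Bax: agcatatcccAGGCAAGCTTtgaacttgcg
They lie at chr11:69580274-69580303 on the plus strand for Trp53, and on the minus strand at chr10:117710925-117710954 for Mdm2, chr11:40755452-40755481 for Ccng1 and chr7:45467080-45467109 for Bax.

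The CHR element occurred in 8 of 28 members, against 21.7% of all genes, so it was about as frequent here as elsewhere. All 8 matches were of the form TTTGAA, shown in capitals as TTTGAA or as TTCAAA where it is read from the other strand. They are shown for BCL2, for the caspase gene that starts the death receptor cascade, for Aen, a p53-induced nuclease gene, and for Bax. The CHR match of Bax shares 2 bases with its p53 decamer. Aen also holds the p53 decamer, which shares 0 bases with its CHR match.
Bcl2: tcttctttttTTTGAAtgaacggtga
Casp8: gacccgtaaaTTCAAAcgtacgctgc
Aen: gctttaagtcTTTGAAggttgcggtt
Bax: ccaggcaagcTTTGAActtgcggcaa
The stretches are chr1:106714395-106714420 (minus strand) for Bcl2, chr1:58802360-58802385 (plus) for Casp8, chr7:78895697-78895722 (plus) for Aen and chr7:45467076-45467101 (minus) for Bax. Neither the p53 decamer nor the CHR element occurred in the windows of Bcl2l11 or Mdm4, the only members that later passed the test. The Bcl2l11 window held the FOXO core, which occurred in 5 of 28 members and in 4.05% of all genes. The others were Bbc3, Mdm2 and Sesn1, which did not pass the test, and Eda2r, which had too few reads to be tested. Mdm4 was not among them. Whether FOXO factors act on Bcl2l11 in these cells was not tested.
Bcl2l11: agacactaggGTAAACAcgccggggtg
This stretch is chr2:128125801-128125827 on the plus strand, and the core begins 227 bases before the annotated start. These matches describe letters in a window and are not evidence of binding.

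Between control and 4-OHT libraries, most of the p53 and apoptosis genes differed by less than the test could call. Bcl2l11, the gene of the BH3-only protein BIM, rose by 36.7% (95% interval 23.4% to 51.5%), and Mdm4 passed the threshold with a fall of 13.3%. Of 29 tested members, 1 was thus higher and 1 lower, which is 6.90% of them, while 9.79% of all 13355 genes tested were called (4.61% higher and 5.17% lower; quasi-likelihood test of edgeR, p adjusted by Benjamini-Hochberg to under 0.05). The share called among the members was therefore not above the background. DESeq2 and limma-voom each called 1 member, Bcl2l11, against 4.53% and 9.65% of all genes they tested. The log2 fold changes of the members ran from -0.29 to 0.45 with a median of 0.07, beside a median of 0.00052 over all genes tested, and 20 lay above and 9 below 0. Control and 4-OHT values did not overlap for 8 of 29 members, 4 lower and 4 higher, or 27.6%, and for 24.3% of all genes tested. At an unadjusted p under 0.05 there were 4 members (13.8%), against 21.2% of all genes tested.

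**Figure D1:**
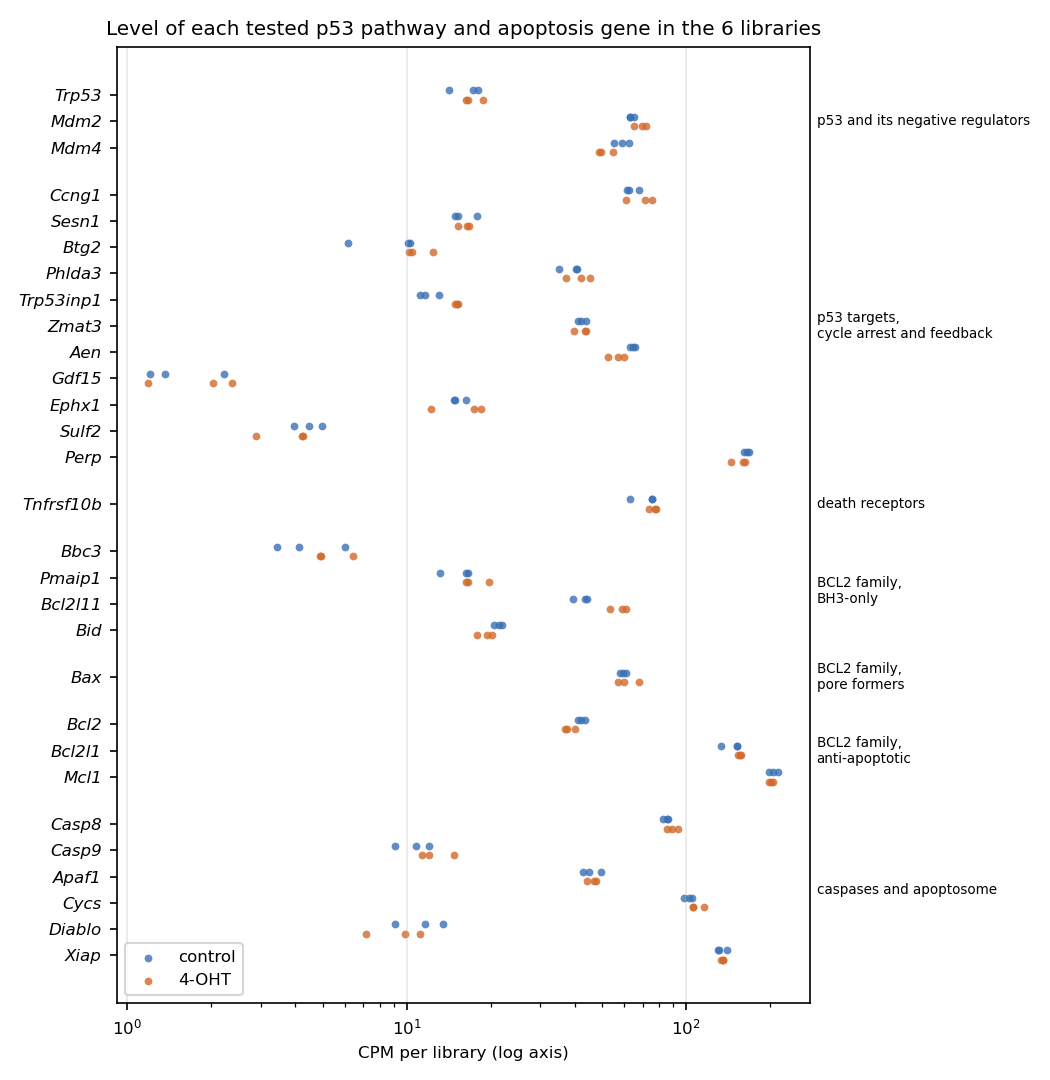
CPM on a log axis of the 29 tested members in each of 3 control (blue) and 3 4-OHT (orange) libraries, ordered by role. Points of the 2 groups are interleaved for most genes, and those of Bcl2l11 are apart, at 39.4 to 44.2 CPM in control and 53.6 to 61.1 CPM in 4-OHT libraries.

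Trp53 (ENSMUSG00000059552, chromosome 11, 69580348 to 69591873), the p53 gene, was counted at 101, 105 and 83 reads in control and at 111, 97 and 98 reads in 4-OHT libraries. In CPM these were 17.3, 18.03 and 14.2 against 18.8, 16.4 and 16.6. The groups overlapped, with the lowest value in control replicate 3 and the highest in 4-OHT replicate 1. The log2 fold change was 0.06 (95% interval -0.18 to 0.31, edgeR adjusted p = 0.841), and its sign turned without control replicate 3 (-0.03) or 4-OHT replicate 1 (-0.0010). RNA of the Trp53 locus was thus present in every library of a line known as p53-deficient, but a count over the whole gene also takes in exons outside a deleted part and says nothing of protein, and the Trp53 alleles of these cells were not tested.

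Of the 2 negative regulators, Mdm2, the ligase gene and a p53 target, stood at 65.4, 63.0 and 63.2 CPM in control libraries against 71.9, 69.8 and 65.3 CPM after 4-OHT. The groups overlapped by a narrow margin, since the lowest 4-OHT library lay just under control replicate 1. The log2 fold change of Mdm2 was 0.11 (95% interval -0.01 to 0.24, edgeR adjusted p = 0.315). Mdm4 (ENSMUSG00000054387, chromosome 1, 132986105 to 133030587) stood at 55.1, 59.1 and 62.7 CPM in control libraries against 54.9, 49.8 and 48.7 CPM after 4-OHT. All 4-OHT values were lower than all control values, but 4-OHT replicate 1 and control replicate 1 almost met. The log2 fold change of Mdm4 was -0.21 (SE 0.07, 95% interval -0.35 to -0.07, edgeR adjusted p = 0.048). This call was lost under 9 of 13 alternatives, with adjusted p between 0.022 and 0.327 over all 13, among them without control replicate 2 (0.105) or 3 (0.267) and without 4-OHT replicate 2 (0.170) or 3 (0.173), although the sign was negative in all 13.

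**Figure D2:**
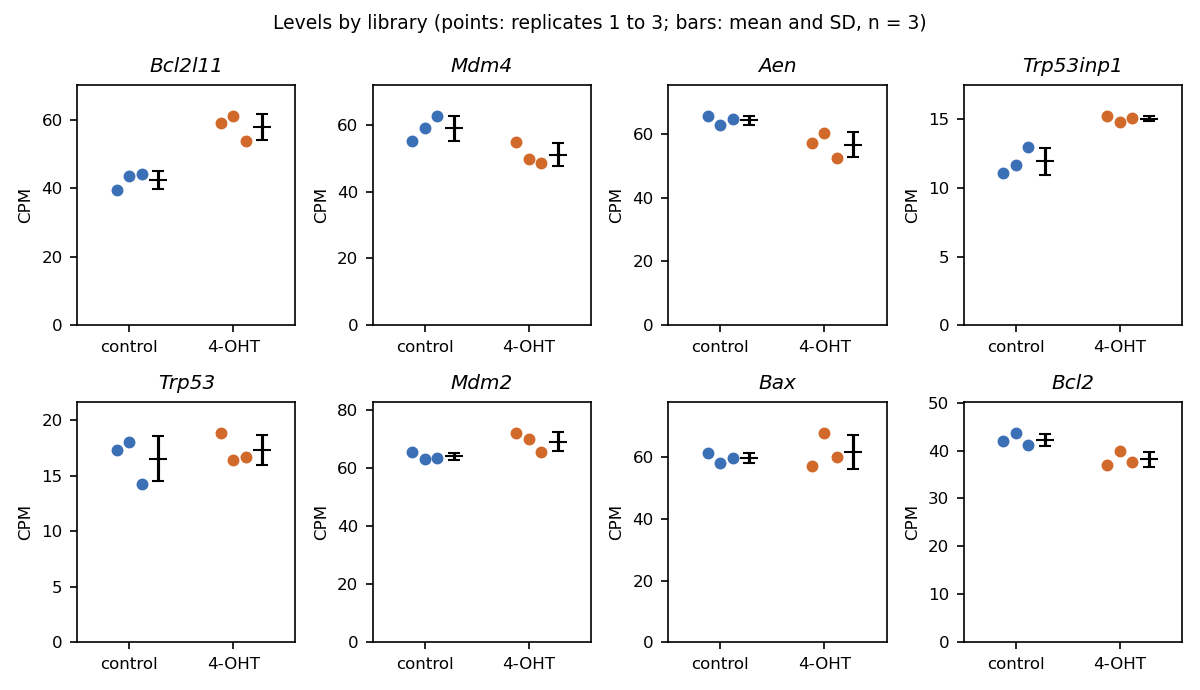
CPM by library for 8 members, each panel from 0, with points for replicates 1 to 3 and bars for mean and SD (n = 3 per group). Bcl2l11, Mdm4, Aen and Trp53inp1 show groups that do not overlap, as does Bcl2, while those of Trp53, Mdm2 and Bax overlap.

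Among p53 targets of arrest, repair and feedback, 0 of 11 tested genes were called by edgeR, with 2 at an unadjusted p under 0.05, and DESeq2 and limma-voom also called 0. Over all genes tested, 9.79% were called and 21.2% had an unadjusted p under 0.05, so with 11 genes these counts (18.2% at the unadjusted threshold) are near the background. The 2 genes differed in opposite directions. Trp53inp1, which encodes a stress-induced nuclear protein that aids p53, stood at 11.1, 11.7 and 13.03 CPM in control libraries against 15.3, 14.8 and 15.1 CPM after 4-OHT. Every 4-OHT value was higher, with a log2 fold change of 0.33 (95% interval 0.06 to 0.61, edgeR adjusted p = 0.116). Aen, which encodes an exonuclease of p53-dependent apoptosis, stood at 65.7, 62.9 and 64.6 CPM in control libraries against 57.3, 60.2 and 52.4 CPM after 4-OHT. Every 4-OHT value was lower, with a log2 fold change of -0.18 (95% interval -0.32 to -0.05, edgeR adjusted p = 0.066), and the gene passed without 4-OHT replicate 2 (adjusted p = 0.047) but under none of the other 12 alternatives.

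The classical targets lay close to their control levels. Ccng1, the cyclin G1 gene, was at 62.6, 61.7 and 67.7 CPM in control libraries against 75.5, 61.1 and 71.3 CPM after 4-OHT, where 4-OHT replicate 2 was the lowest of all 6. Its log2 fold change was 0.11 (95% interval -0.02 to 0.25). Zmat3, an RNA-binding tumour suppressor gene, had the smallest difference of the members, with 42.3 ± 1.503 CPM in control libraries against 42.3 ± 2.30 CPM after 4-OHT (mean ± SD, n = 3 each; 95% interval of the log2 fold change -0.16 to 0.16). Sesn1, a sestrin that restrains mTORC1, had 104, 89 and 87 reads in control and 97, 99 and 90 reads after 4-OHT, with overlapping groups.

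Phlda3, an inhibitor of AKT signalling, had a log2 fold change of 0.10 (95% interval -0.06 to 0.27), and Perp, a desmosomal membrane protein gene, one of -0.08 (-0.18 to 0.01). Btg2, an antiproliferative gene, was at 6.16, 10.3 and 10.1 CPM in control libraries against 10.2, 10.5 and 12.4 CPM after 4-OHT. Control replicate 1 stood low by itself, and the log2 fold change of 0.31 (95% interval -0.02 to 0.64) was 0.11 without it. Ephx1, an epoxide hydrolase gene, had a log2 fold change of 0.07 (95% interval -0.20 to 0.33) and Sulf2, a heparan sulfatase gene, one of -0.24 (-0.73 to 0.26). Gdf15, a stress cytokine gene that p53 induces strongly in many tissues, had only 7 to 14 reads per library, and its interval from -0.55 to 0.98 leaves its direction undetermined.

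Another 4 members had too few reads to be tested. Ddit4l, an mTORC1 inhibitor gene, had 1 or 2 reads in each library. Of the death receptor genes, Eda2r had 1 to 4 reads per library, and Fas had 1, 0 and 0 reads in control and 1, 0 and 1 in 4-OHT libraries. A count of 0 allows up to 3 reads, or 0.506 to 0.515 CPM, for counting error only, so no difference in Fas was detectable at this depth. Tnfrsf10b, the mouse TRAIL receptor gene, was by contrast well covered, at 75.7, 63.2 and 75.4 CPM in control libraries against 78.0, 77.3 and 73.7 CPM after 4-OHT. Its groups overlapped (log2 fold change 0.10, 95% interval -0.03 to 0.22, edgeR adjusted p = 0.414).

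**Figure D3:**
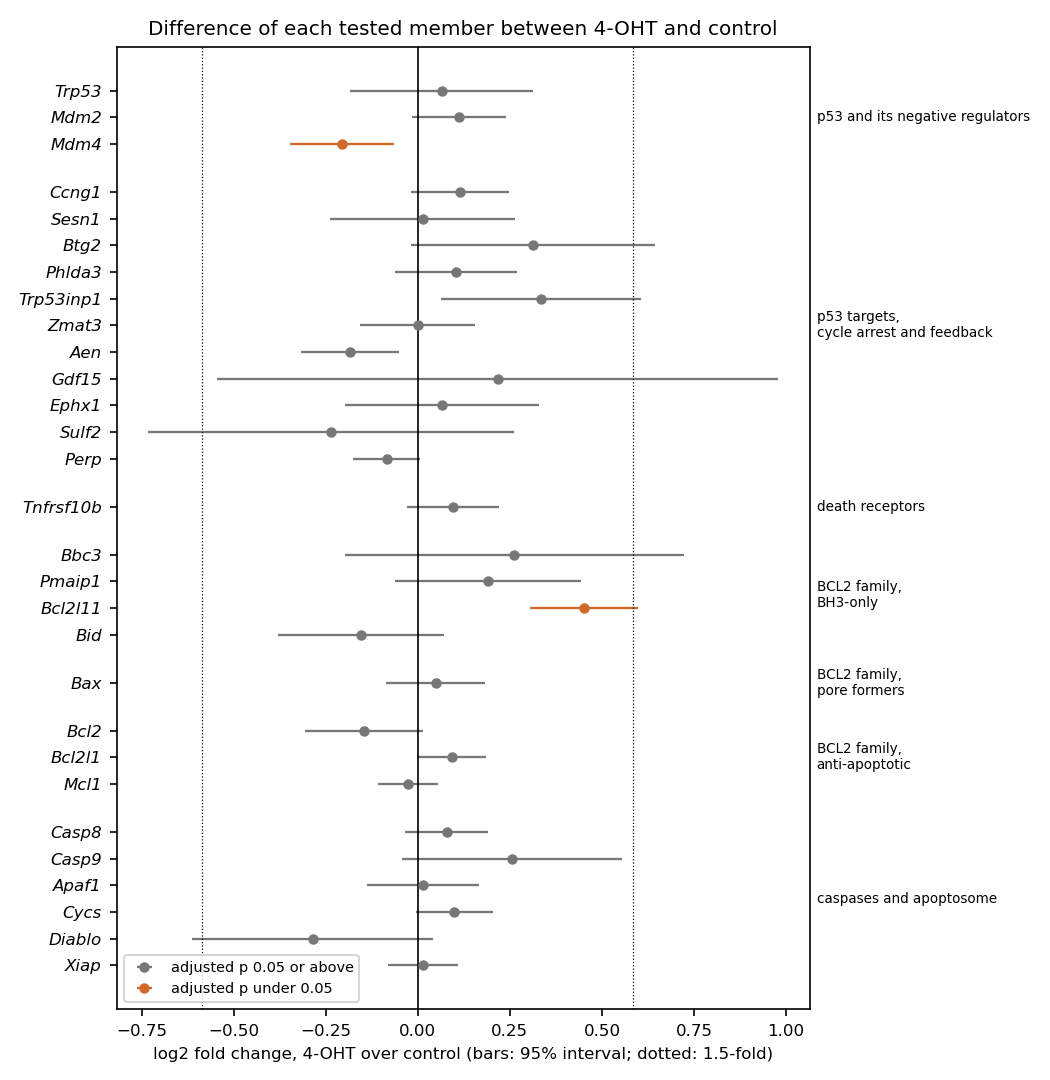
Log2 fold change (4-OHT over control) of each tested member with its 95% interval, and dotted lines at a 1.5-fold difference either way. Of the 29 intervals, 22 lie wholly between the dotted lines, and those of Bcl2l11 and Mdm4 (orange) belong to the genes with an adjusted p under 0.05.

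The clearest difference fell within the BH3-only genes, which start mitochondrial apoptosis. Bcl2l11 (ENSMUSG00000027381, chromosome 2, 128126038 to 128162547), whose product BIM binds all anti-apoptotic BCL2 proteins, was counted at 230, 253 and 258 reads in control and at 348, 362 and 316 reads in 4-OHT libraries. In CPM these were 39.4, 43.4 and 44.2 against 59.0, 61.1 and 53.6, so that the lowest 4-OHT library lay above the highest control library. The log2 fold change of Bcl2l11 was 0.45 (SE 0.07, 95% interval 0.30 to 0.60, edgeR adjusted p = 2.1e-06). It was called under all 13 alternatives, with log2 fold changes from 0.40 to 0.50 and adjusted p of at most 0.00066, the value in DESeq2. The first 215 bases of the Bcl2l11 span overlap the end of Acoxl in RefSeq, a gene with 57 reads over all 6 libraries.

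The other 3 BH3-only genes did not pass, and their values did not share a direction. Bbc3, the PUMA gene and a direct p53 target, was at 3.42, 6.01 and 4.11 CPM in control libraries against 6.44, 4.89 and 4.92 CPM after 4-OHT. The groups overlapped, and with 20 to 38 reads per library the interval of its log2 fold change was wide (0.26, 95% interval -0.20 to 0.72). Pmaip1, the NOXA gene and another p53 target, was at 16.6, 16.3 and 13.2 CPM in control libraries against 16.6, 16.4 and 19.7 CPM after 4-OHT (log2 fold change 0.19, 95% interval -0.06 to 0.44). Bid, whose product links death receptors to mitochondria, was at 20.5, 21.5 and 21.9 CPM in control libraries against 17.8, 20.2 and 19.3 CPM after 4-OHT. Its groups did not overlap, with every 4-OHT value lower, and its log2 fold change of -0.16 did not pass (95% interval -0.38 to 0.07, edgeR adjusted p = 0.473).

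Of the pore formers, Bax, a p53 target, was at 61.1, 57.9 and 59.6 CPM in control libraries against 57.1, 67.6 and 59.9 CPM after 4-OHT. Both the lowest and the highest value belonged to 4-OHT libraries, and the log2 fold change was 0.05 (95% interval -0.09 to 0.18, edgeR adjusted p = 0.766). Bak1, its partner, was listed at 0 reads in all 6 libraries. The whole 8816-base span of Bak1 lies inside that of Ggnbp1 in RefSeq, which had 238 reads over the 6 libraries. How reads of overlapping genes were counted is not given in the sources used here, so the 0 is no measure of Bak1 RNA.

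The 3 anti-apoptotic genes did not pass either. Bcl2 was at 41.9, 43.6 and 41.1 CPM in control libraries against 37.0, 40.0 and 37.5 CPM after 4-OHT, every 4-OHT value being lower (log2 fold change -0.15, 95% interval -0.31 to 0.01, edgeR adjusted p = 0.292). Bcl2l1, the BCL-XL gene, was at 152.7, 152.2 and 133.9 CPM in control libraries against 153.3, 157.7 and 156.5 CPM after 4-OHT. Its 4-OHT values were all higher, but control replicates 1 and 2 came close to them (log2 fold change 0.09, 95% interval -0.0020 to 0.19). Mcl1, a short-lived survival factor gene, was at 205.4 ± 7.94 CPM in control libraries against 201.7 ± 3.65 CPM after 4-OHT (mean ± SD, n = 3 each), and its interval of -0.11 to 0.06 on the log2 scale was among the narrowest of the members.

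Among the caspase and apoptosome genes, 0 of 6 tested were called by edgeR, with 0 at an unadjusted p under 0.05. DESeq2 and limma-voom also called 0 of them. Over all genes tested, edgeR called 9.79% and 21.2% had an unadjusted p under 0.05. With only 6 genes, these counts are near the background. Cycs, the cytochrome c gene, was at 98.4, 102.7 and 104.7 CPM in control libraries against 115.6, 105.8 and 106.2 CPM after 4-OHT, with groups that did not overlap but lay close (log2 fold change 0.10, 95% interval -0.0060 to 0.20). Apaf1, the apoptosome scaffold gene, was at 45.8 ± 3.54 and 46.3 ± 1.81 CPM (mean ± SD, n = 3 each). Casp9, the caspase gene of the apoptosome, was at 12.0, 9.10 and 10.8 CPM in control libraries against 14.8, 12.0 and 11.4 CPM after 4-OHT, which overlapped (log2 fold change 0.26, 95% interval -0.04 to 0.56).

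Casp8, the initiator caspase gene of death receptors, had a log2 fold change of 0.08 (95% interval -0.04 to 0.19). Xiap, which encodes an inhibitor of caspases, stood at 133.8 ± 6.04 and 135.1 ± 1.06 CPM (mean ± SD, n = 3 each; 95% interval -0.08 to 0.11). Diablo, the gene of the SMAC protein that relieves this inhibition, had the lowest log2 fold change of the members, -0.29 (95% interval -0.61 to 0.04, edgeR adjusted p = 0.318). Its groups overlapped, at 13.5, 11.7 and 9.08 CPM in control libraries against 9.84, 11.1 and 7.13 CPM after 4-OHT. Bcl2l1, Casp9, Apaf1 and Diablo each overlap another gene in RefSeq, by 7 to 6308 bases, and how such reads were assigned is not given in the sources used here. Over all 29 tested members, the 95% interval excluded a 1.5-fold difference in either direction for 22. The other 7 were Bcl2l11, Trp53inp1, Btg2, Bbc3, Gdf15, Sulf2 and Diablo.

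**Figure D4:**
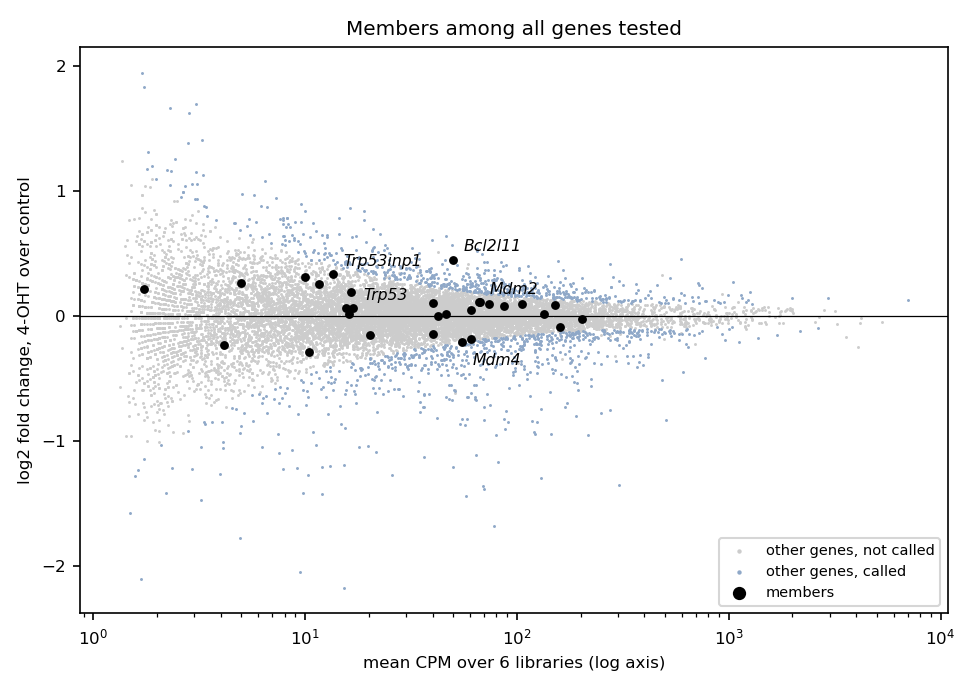
Log2 fold change (4-OHT over control) against mean CPM (log axis) for all 13355 genes tested, with called genes in blue and the 29 members in black. Bcl2l11 lies above the grey band of genes that were not called, and most other members lie within it.

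Genes of the same pathways outside the member list were also examined, in lists chosen with earlier results of these data known. Of 31 further p53 targets, 26 were tested, with 4 called lower, 1 called higher and 21 not called (median log2 fold change -0.02). This was 19.2% called, against 9.79% of all genes tested. In DESeq2 2 of the genes were called, against 4.53% of all genes it tested. Thbs1, which encodes thrombospondin 1 and is also known as a target of TGF-beta and YAP, was at 403.1, 445.3 and 413.6 CPM in control libraries against 336.9, 350.2 and 331.3 CPM after 4-OHT. Every 4-OHT value was lower (log2 fold change -0.31, edgeR adjusted p = 4.6e-11), and the gene was called under all 13 alternatives. Other calls, named after their values were seen, were Sesn2 (-0.48), Gadd45a (-0.67) and Plk2 (0.20), none of which passed in DESeq2 (adjusted p = 0.067, 0.157 and 0.067). Cdkn1a, the p21 gene, was at 33.5, 34.7 and 33.8 CPM in control libraries against 31.03, 34.6 and 33.9 CPM after 4-OHT, and its interval of -0.21 to 0.14 on the log2 scale spanned 0.

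Of 23 p53 regulators and family genes, 21 were tested, of which 2 were higher, 0 lower and 19 did not pass (median log2 fold change -0.06). The share called, 9.52%, was near the 9.79% of all genes tested. Hipk2, a kinase gene whose product phosphorylates p53 under stress, was at 90.03, 88.8 and 89.3 CPM in control libraries against 116.7, 117.9 and 110.8 CPM after 4-OHT. The groups were well apart (log2 fold change 0.37 with SE 0.05, edgeR adjusted p = 7.7e-08), and the gene was called under all 13 alternatives. Trp53bp2, which encodes the p53-binding protein ASPP2, was at 65.04, 65.3 and 66.5 CPM in control libraries against 75.1, 76.2 and 77.4 CPM after 4-OHT (log2 fold change 0.22, edgeR adjusted p = 0.011). The call was lost in DESeq2 (adjusted p = 0.157) and without control replicate 1 (0.051). The p53 paralogue genes Trp63 and Trp73 had 0 to 4 and 1 to 3 reads per library. Cdkn2a, the locus of p16 and of the MDM2 inhibitor ARF, named after its values were seen, was at 266.8, 277.5 and 258.0 CPM in control libraries against 239.8, 248.7 and 255.8 CPM after 4-OHT (log2 fold change -0.11, 95% interval -0.19 to -0.03, edgeR adjusted p = 0.059).

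Of 52 further apoptosis genes, 31 were tested, with 1 called lower, 1 called higher and 29 not called (median log2 fold change -0.03). The share called, 6.45%, was not above the 9.79% of all genes tested. Birc6, the gene of a very large inhibitor of apoptosis, was at 133.7, 142.7 and 138.3 CPM in control libraries against 120.1, 122.5 and 104.9 CPM after 4-OHT. Every 4-OHT value was lower (log2 fold change -0.26 with SE 0.05, edgeR adjusted p = 0.00012), and the gene was called under all 13 alternatives. Cflar, which encodes the caspase-8 inhibitor c-FLIP, was at 116.2, 120.04 and 118.6 CPM in control libraries against 127.9, 133.4 and 133.1 CPM after 4-OHT. Every 4-OHT value was higher (log2 fold change 0.15, edgeR adjusted p = 0.030), but the call was lost under 6 of 13 alternatives, with adjusted p up to 0.253 in DESeq2, and without each of 5 libraries (all but 4-OHT replicate 1). Among 5 tested further BCL2 family genes and 13 tested caspases and substrates, 0 were called by edgeR, DESeq2 or limma-voom. At an unadjusted p under 0.05 in edgeR there were 0 and 3 (23.1%), against 21.2% of all genes tested. With 5 and 13 genes, these counts are near the background. Bok, a BAX-like gene, was at 102.2 ± 6.84 and 100.4 ± 3.73 CPM, and Parp1, a DNA damage sensor gene cleaved by caspases, at 182.2 ± 6.70 and 171.4 ± 2.22 CPM (mean ± SD, n = 3 each).

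**Figure D5:**
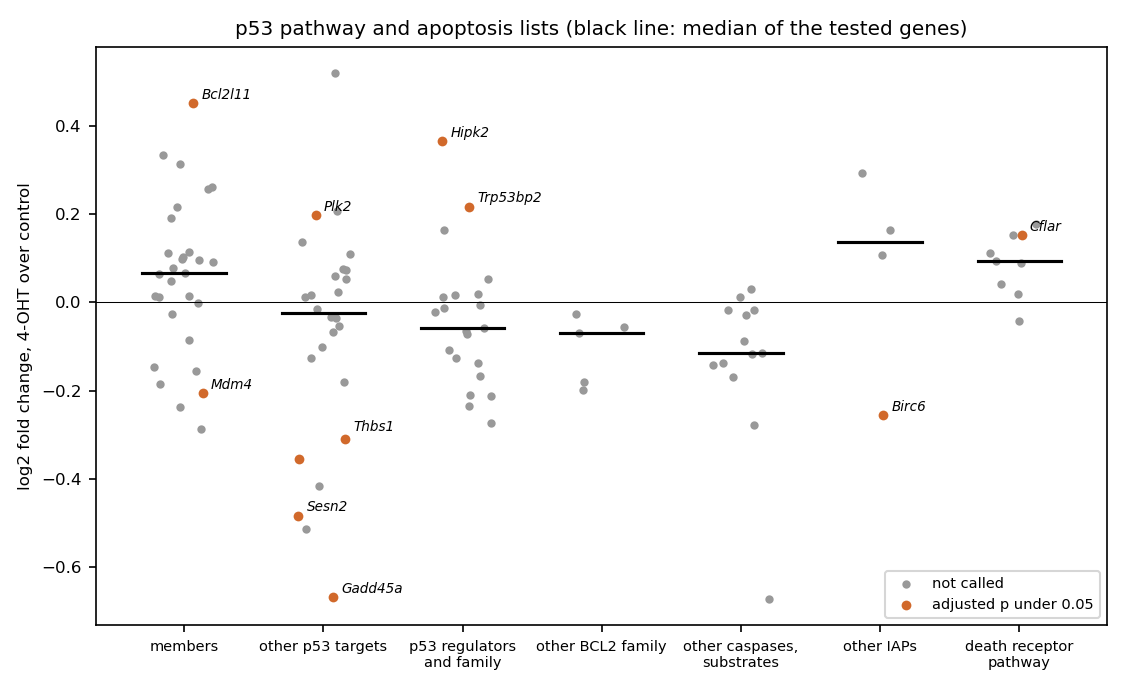
Log2 fold change (4-OHT over control) of the tested genes of 7 lists, 1 point per gene, with genes at an adjusted p under 0.05 in orange, those described in the text named, and a black line at each list's median. The share called was 6.90% of the members, 19.2% of the other p53 targets and 9.52% of the p53 regulators and family. It was 0% of the other BCL2 family and of the other caspases and substrates. Of the 4 tested other IAPs it was 25%, and of the death receptor pathway 11.1%, against 9.79% of all genes tested. Bcl2l11 and Hipk2 have the highest log2 fold changes of the called genes.

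In the authors' deposited table, Bcl2l11 had a log2 fold change of 0.45 and an FDR of 2.8e-07. Mdm4 stood there at -0.21 with an FDR of 0.056, on the other side of the threshold from the test above. Of all 17483 genes in the authors' deposited table, 7.14% had an FDR under 0.05, and Bcl2l11 was the only member among them.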

How the data were processed

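The RNA-seq data are 6 KPL libraries; the ChIP-seq part of the series (27 samples) was left aside. Per the labels, polyadenylated RNA was sequenced. In the gene matrix that the authors deposited, values are raw counts. The table deposited by the authors holds log2 values and, per the file headers, a p-value and an FDR per gene, from a test that is not stated. Named without roles in the submitters' processing notes are edgeR, bedtools 2.26.0, Bowtie2, Bowtie 1.1.2 and TopHat2 2.1.0. For the counter and the use of strand, the sources used here give nothing. Gene lengths were not used, so levels are compared only within a gene.

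Repeated lines (27) were kept once. Genes were filtered with filterByExpr (minimum count 10, minimum total 15), scaled by TMM and compared with edgeR 4.0.16 in R 4.3.3 (quasi-likelihood F test, robust fit), two-sided, with no replicate block and Benjamini-Hochberg adjustment over all 13355 genes tested (threshold 0.05). Standard errors and 95% intervals were derived from the F statistic. The procedure was tested on simulated data. Alternatives were other scalings and filters, DESeq2 1.42.0, limma-voom (limma 3.58.1), a replicate block and leaving out each library. Replicates were no duplicates of each other (chi-square over degrees of freedom 1.26 to 1.48), so none were merged. Coordinates, promoters and their starts are from RefSeq (GRCm38.p6). Of each further list, the 2 called genes with the smallest p were named, or the gene with the highest CPM where none was called; Lin9 and Cdkn1a were named regardless, and 1 gene that the rule names is not reported here. Pidd1, Tigar, Cop1, Gsdme and Adgre1 were matched by Ensembl ID, and Tnfrsf10a was not matched. The members and lists were chosen with earlier results of these data known.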

Additional observations from a re-analysis of the deposited data

How the results depend on the processing

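Bcl2l11, Lin9, Thbs1, Hipk2 and Birc6 were called under all 13 alternatives. The 1 member called lower was Mdm4 (Aen without 4-OHT replicate 2); 0 members were called lower with library totals, no low-count filter, DESeq2, limma-voom or the replicate block, and 0 to 1 without 1 library. DESeq2 called 2 other p53 targets lower and 0 higher, 1 p53 regulator higher, 0 other apoptosis genes higher, and 362 genes lower and 208 higher among all. Without 1 library, 0 to 1 other p53 targets, 1 to 2 p53 regulators and 0 to 1 other apoptosis genes were called higher, 0 to 1 p53 regulators were called lower, and 403 (without control replicate 1) to 542 of all genes were called higher. Signs turned only for log2 fold changes that no fit called: Zmat3 with library totals (0.0090), and, as ranges over leaving out 1 library, Trp53 (-0.032 to 0.13), Sesn1 (-0.035 to 0.097), Zmat3 (-0.028 to 0.044), Ephx1 (-0.048 to 0.22), Bax (-0.024 to 0.0998), Mcl1 (-0.052 to 0.0042), Apaf1 (-0.033 to 0.077), Xiap (-0.0072 to 0.052), Cdkn1a (-0.065 to 0.012) and Bok (-0.072 to 0.024). The cause of these differences was not tested. Same-numbered libraries did not deviate together (correlations -0.0097, 0.0096 and -0.03), so the numbers were not taken as pairs; with the replicate block 665 genes were called lower and 579 higher. Depth limits the genes with few reads, such as Gdf15, for which DESeq2 gave no adjusted p.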
